A study of Danio rerio with 6 samples.

Results

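The 10 genes described here are markers of neutrophils and macrophages, namely lyz, npsn, mpx, mmp9, mmp13a, coro1a, lcp1, spi1b, cebpa and csf1ra. They were chosen by gene symbol in the deposited expression table, which holds 31624 genes, and all 10 were found. The study set 3 libraries of rbm24a mutant embryos against 3 libraries of wild-type embryos, all whole zebrafish of the AB strain at 33 hours post fertilization. Rbm24a is a protein that binds RNA. Per the labels the mutants carry a deletion of 8 bp made with TALENs, which are designed nucleases, and the wild-type embryos carry no such change. The 3 mutant libraries have labels that disagree on the exon of this deletion, so none is given here. The labels do not say how many embryos or clutches each library holds. P-values therefore measure the spread between these libraries, which may be technical.

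Neutrophils and macrophages are the phagocytes of the zebrafish embryo and arise before lymphocytes do. Both depend on the transcription factor Spi1 (PU.1), with C/EBP factors acting in the granulocyte branch and the receptor Csf1r in macrophages. Neutrophils store antimicrobial enzymes and proteases in granules, and both cell types crawl through tissue by rapid remodelling of actin.

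Total counts lay between 13242789 and 16043155 reads per library. Rbm24a itself had 288, 514 and 366 reads in mutants 1 to 3 and 204, 247 and 211 reads in wild types 1 to 3. Since so short a deletion leaves nearly the whole transcript to be counted, the level is no check of genotype. No pair of libraries of 1 group agreed within sampling noise, with a chi-square of 3.48 to 21.7 per gene. Mutant replicate 2 was the library that stood farthest from its group. Markers of epidermis, liver and yolk, red cells, endothelium and pigment cells were all detected. Of the 16 related gene lists, the number at 0 reads in every library was at most 2 genes in any list, among them cxcr2, c1qc and tnfa.

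Transcripts of 6 of the 10 marker genes were higher in the mutants, none was called lower, and the rises were between 1.37-fold and 1.76-fold. The 6 are lyz, npsn and mpx of the neutrophil granule, the protease gene mmp9, and the leukocyte actin regulators coro1a and lcp1. The transcription factor genes spi1b and cebpa were tested and did not pass. The genes mmp13a and csf1ra had a mean under 0.5 FPKM (read counts scaled by the gene's exonic length and the library's total) over the 6 libraries and were left out of the main test. Counts were tested with edgeR's quasi-likelihood test, and a gene was called at a Benjamini-Hochberg adjusted p under 0.05 over all 16489 genes tested. Of those genes 6.71% were called higher in the mutants and 7.48% lower, against 6 and 0 of the 8 marker genes tested. The marker genes were chosen with earlier results of these data known, so this comparison is a description and not a test. DESeq2 called the same counts, 6 and 0, and limma on log2(FPKM + 1) called 3 higher, namely lyz, npsn and coro1a, and 0 lower. Over all 16489 genes DESeq2 called 1098 higher and 1164 lower, and limma 850 higher and 1303 lower. At an unadjusted p under 0.05 the number lower among the 8 tested genes was also 0. In an edgeR fit without the filter csf1ra was lower at an unadjusted p of 0.0198 (adjusted p = 0.119). In that fit mmp13a was higher at an unadjusted p of 0.0336 (adjusted p = 0.171), so neither passed adjustment. The median log2 change was 0.60 over the 8 marker genes and -0.0017 over all tested genes. RNA came from whole embryos, so more myeloid cells, more RNA per myeloid cell and RNA from other cells cannot be told apart.

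**Figure D1:**
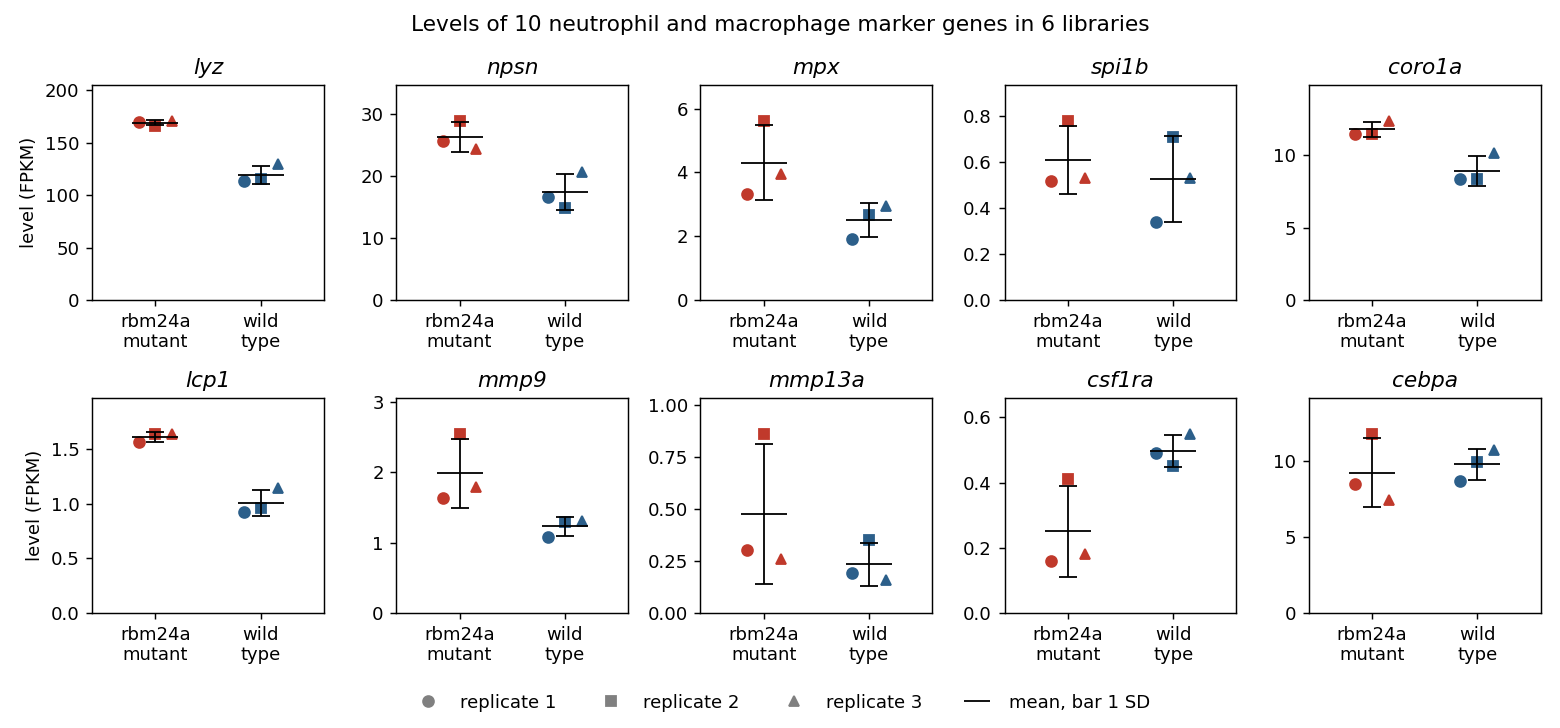
Level in FPKM (y axis, from 0, a separate scale for each gene) of the 10 marker genes in 3 rbm24a mutant and 3 wild-type libraries, with replicates as symbols, the mean as a line and 1 SD as a bar. All mutant points lie above all wild-type points for lyz, npsn, mpx, coro1a, lcp1 and mmp9, and below them for csf1ra.

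Lyz (ENSDARG00000057789) encodes lysozyme, which cleaves bacterial cell walls and is made by neutrophils and by a part of the macrophages. It had 169, 166 and 171 FPKM in mutants 1 to 3, against 114, 115 and 129 FPKM in wild types 1 to 3. The groups did not overlap, and the mutants lay closer together than the wild types. Its mean was 169 ± 2.39 FPKM in mutants and 119 ± 8.52 FPKM in wild type (SD, n = 3 each). On the log2 scale it changed by 0.56 (SE 0.11, adjusted p = 0.00346). With 4486 reads in the mutant and 2985 in the wild-type libraries it is the most deeply covered of the 10 genes.

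Npsn (ENSDARG00000010423), nephrosin, is an astacin-type metalloprotease of granulocytes. Its levels were 25.6, 28.8 and 24.2 FPKM in the mutants and 16.6, 14.9 and 20.5 FPKM in wild type, again with no overlap. The means were 26.2 ± 2.37 and 17.3 ± 2.89 FPKM (mutant and wild type, SD, n = 3 each), and the log2 change was 0.64 (SE 0.13, adjusted p = 0.00462). Relative to lyz its level was between 0.142 and 0.174 in the mutants and between 0.129 and 0.159 in wild type, ranges that overlap.

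Mpx (ENSDARG00000019521) encodes the myeloid peroxidase that forms hypochlorous acid in neutrophil granules. It was at 3.33, 5.62 and 3.96 FPKM in the mutants, against 1.90, 2.67 and 2.95 FPKM in wild type. The groups did not overlap, with mutant replicate 2 well above the other mutants. The log2 change of 0.82 (SE 0.18, adjusted p = 0.00815) was the largest of the 8 tested genes. Without wild-type replicate 1, which had its lowest level, the change was 0.67 and the call was lost (adjusted p = 0.0587).

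Mmp9 (ENSDARG00000042816) is a gelatinase that degrades basement membrane collagen, released by neutrophils and macrophages and also made by epidermis and other tissue after injury. It had 1.63, 2.55 and 1.79 FPKM in the mutants and 1.08, 1.30 and 1.31 FPKM in wild type. All mutants lay above all wild types, and mutant replicate 2 was again the highest. The log2 change was 0.73 (SE 0.21, adjusted p = 0.0338). The call was lost without mutant replicate 2 (0.60, adjusted p = 0.0514), mutant replicate 3 (adjusted p = 0.0761) or wild-type replicate 1 (adjusted p = 0.138), 2 (adjusted p = 0.0826) or 3 (adjusted p = 0.0889).

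Mmp13a (ENSDARG00000012395), a collagenase of macrophages and of stromal cells, was read 13, 37 and 13 times in the mutants and 8, 15 and 7 times in wild type. That is 0.30, 0.86 and 0.26 FPKM in the mutants against 0.19, 0.35 and 0.16 FPKM in wild type, with overlapping groups. In a fit without the filter, over 25307 genes, its log2 change was 1.01 (95% interval 0.08 to 1.94) and it was not called (edgeR adjusted p = 0.171). That fit called 5.48% of genes higher and 6.76% lower. Without mutant replicate 2, which alone held 37 of its 63 mutant reads, the change was 0.38 (adjusted p = 0.683).

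Coro1a (ENSDARG00000054610) encodes coronin 1A, which binds actin filaments in leukocytes. It had 11.5, 11.5 and 12.4 FPKM in the mutants and 8.33, 8.35 and 10.1 FPKM in wild type. The groups did not overlap, and the gap between them was narrower than the spread among the wild types. The log2 change was 0.45 (SE 0.13, adjusted p = 0.0389), the smallest of the calls. It was lost without mutant replicate 1 (adjusted p = 0.102), mutant replicate 3 (0.149), wild-type replicate 1 (0.141) or wild-type replicate 2 (0.151), while the change itself stayed between 0.37 and 0.55 over all alternatives. In the RefSeq annotation of another assembly coro1a overlaps cldni, an epidermal claudin gene with 161 ± 17.1 FPKM in mutants and 152 ± 10.4 FPKM in wild type (SD, n = 3 each). Spi1b, lcp1, mmp9 and cebpa also overlap other annotated genes there. It is not known whether the authors counted by strand, so reads from such overlaps are uncertain.

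Lcp1 (ENSDARG00000023188), or L-plastin, bundles actin filaments in leukocytes of both kinds. Levels were 1.56, 1.64 and 1.64 FPKM in the mutants and 0.92, 0.96 and 1.14 FPKM in wild type, with no overlap and little spread in either group. The log2 change was 0.73 (SE 0.19, adjusted p = 0.0223). The call was lost without mutant replicate 1 (adjusted p = 0.0681), mutant replicate 3 (0.0862), wild-type replicate 1 (0.0934) or wild-type replicate 2 (0.0807), with changes of 0.67 to 0.72. Relative to coro1a its level was 0.132 to 0.143 in the mutants and 0.110 to 0.115 in wild type, a difference that was not tested.

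**Figure D2:**
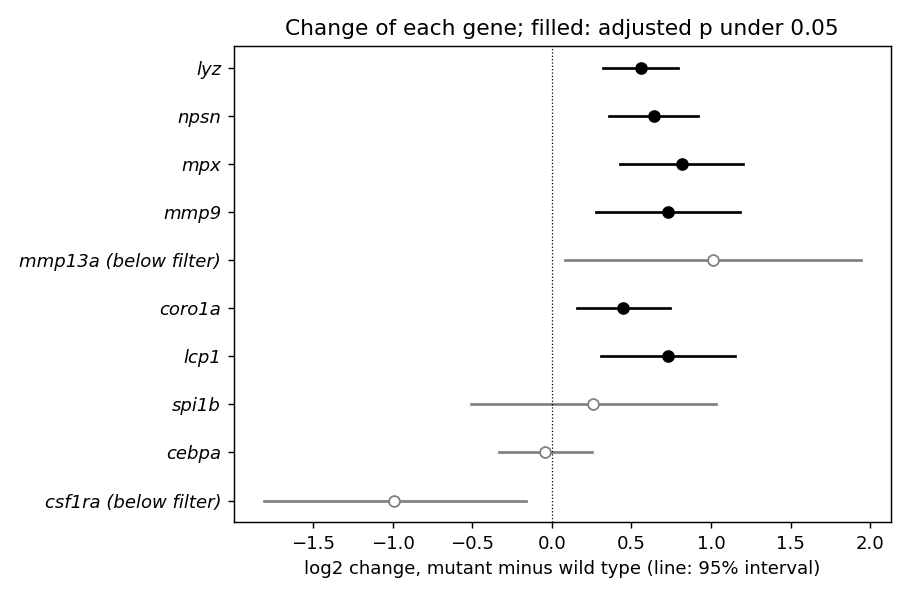
The log2 change between mutant and wild type (x axis) of each marker gene with an approximate 95% interval derived from edgeR's test, filled where the adjusted p is under 0.05. The 6 filled genes have changes between 0.45 and 0.82, and the intervals of spi1b and cebpa include 0; mmp13a and csf1ra come from the fit without a filter.

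Spi1b (ENSDARG00000000767) encodes PU.1, the factor that commits blood progenitors to the myeloid fate. It had only 18, 27 and 21 reads in the mutants and 11, 24 and 19 reads in wild type. These are 0.52, 0.78 and 0.53 FPKM in mutants and 0.34, 0.71 and 0.53 FPKM in wild type, and the groups overlap. In both groups replicate 2 was the highest. The log2 change was 0.26 (95% interval -0.51 to 1.03, adjusted p = 0.711). That interval contains both no change and the rises of the 6 called genes, so these counts do not resolve whether it changed. Its paralog spi1a was at 0.597 ± 0.127 FPKM in mutants and 0.560 ± 0.0265 FPKM in wild type (SD, n = 3 each; adjusted p = 0.836).

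Cebpa (ENSDARG00000036074) encodes C/EBP alpha, a factor of granulocyte development that also acts in liver and other epithelia. Its levels were 8.50, 11.8 and 7.42 FPKM in the mutants, against 8.70, 9.94 and 10.7 FPKM in wild type. Mutants lay both above and below all wild types. The log2 change was -0.04 (95% interval -0.33 to 0.25, adjusted p = 0.878), so the upper end of the interval lies below the estimated change of each of the 6 called genes. The interval still overlaps that of coro1a (0.16 to 0.74), while those of the other called genes start at 0.28 or above. The difference of cebpa from these genes was not tested. It had 1160 reads in mutants and 1169 in wild type, where spi1b had 66 and 54.

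Csf1ra (ENSDARG00000102986) encodes the receptor for macrophage colony-stimulating factor and is expressed in macrophages and in the yellow pigment cells, the xanthophores. Its values lay on the other side of wild type from those of the 6 called markers. It had 8, 20 and 10 reads in the mutants and 23, 22 and 28 reads in wild type, or 0.16, 0.41 and 0.18 FPKM against 0.49, 0.45 and 0.55 FPKM. All mutants lay below all wild types, although mutant replicate 2 came close. In the fit without the filter the log2 change was -0.99 (95% interval -1.81 to -0.16) and did not pass adjustment (adjusted p = 0.119). Without mutant replicate 2 it was -1.42 and was called lower (adjusted p = 0.0125). Of the 9 xanthophore genes tested 0 were called by edgeR, DESeq2 or limma. Their median log2 change was -0.09, 2 of the 9 had a positive change, and 1 was lower at an unadjusted p under 0.05. The 2 were mycbp2 (0.21) and akr1b1 (0.09). All others were negative, among them gch2 (-0.09), xdh (-0.36), aox5 (-0.14), pax7a (-0.08) and pax7b (-0.26). Without mutant replicate 2, 2 of the 9 were called lower, where 14.8% of all genes were called lower. The summed level of the 9 was 366 to 443 FPKM in mutants and 419 to 433 FPKM in wild type. Most of that sum was gch2, with a mean of 300 FPKM over the 6 libraries. The part of xanthophores in the level of csf1ra was not tested.

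In the mutants lyz was followed in level by npsn, then coro1a and cebpa, whose ranges overlap, then mpx. Mmp9 and lcp1 came next and just overlap (lowest mmp9 1.63, highest lcp1 1.64 FPKM), ahead of spi1b, mmp13a and csf1ra, which overlap in turn. In wild type cebpa stood ahead of coro1a, again with overlapping ranges, and csf1ra ahead of mmp13a (lowest csf1ra 0.45, highest mmp13a 0.35 FPKM). Lyz held 47.2%, 40.9% and 47.5% of the reads of the 10 genes in the mutants and 44.6%, 43.3% and 42.2% in wild type. Together the 10 genes took 0.0217%, 0.0245% and 0.0217% of all reads in the mutants and 0.0154%, 0.0160% and 0.0185% in wild type. The FPKM of all 3 mutants lay above those of all 3 wild types for 6 of the 8 tested markers and below them for 0, against 12.9% and 17.6% of all tested genes.

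Mutant replicate 2 was higher than the other mutants for some markers and lower for others. Against the mean of mutants 1 and 3 its log2 difference, from TMM-scaled CPM (counts relative to the library's total), was 0.42 for mpx, 0.36 for mmp9, 0.36 for cebpa and 0.34 for spi1b. The same difference was -0.25 for lyz, -0.26 for coro1a and -0.17 for lcp1, and npsn was at 0.00. Over all tested genes this library was lower in short and higher in long transcripts, with a median of -0.19 in the shortest of 10 length bins (median 684 bp) and 0.17 in the longest (median 6818 bp). Wild-type replicate 2 had a weaker trend of the same direction, -0.11 and 0.11. Lyz is the shortest of the markers at 603 bp and lcp1 the longest at 4330 bp. Lcp1 went against the trend of its length in both libraries (-0.17 in each). With the length trend of every library removed, an alternative chosen after seeing the data, 6 marker genes were still called higher and 0 lower. Without mutant replicate 2, 5 of the 8 tested markers were higher and 0 lower, where 14.5% of all genes were called higher and 14.8% lower.

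**Figure D3:**
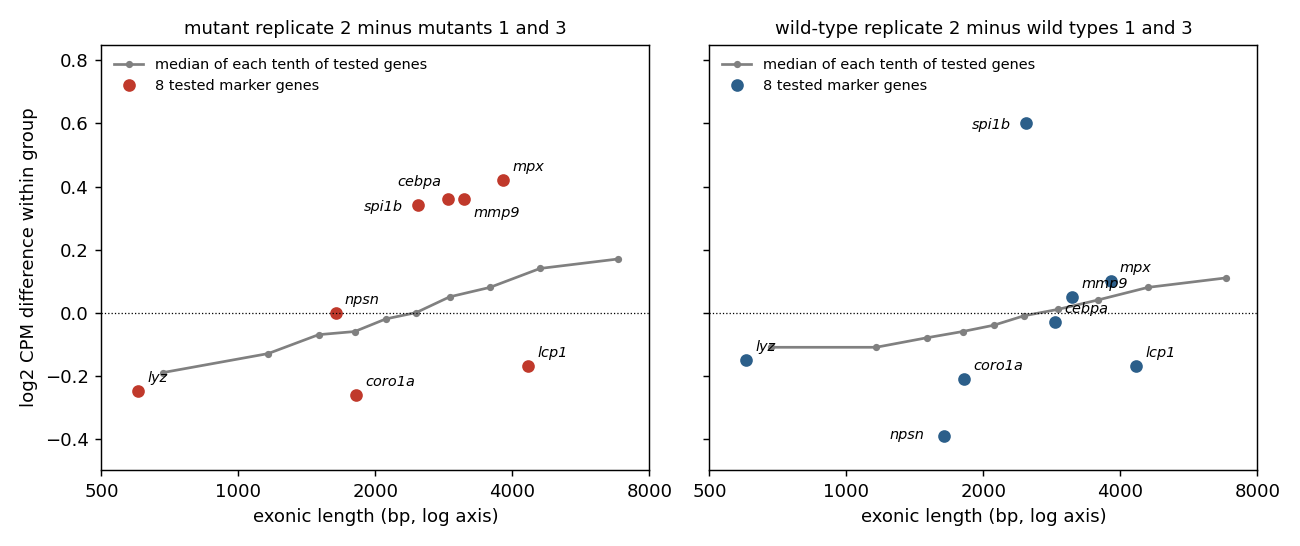
Log2 difference in CPM of replicate 2 from the mean of replicates 1 and 3 (y axis) against exonic length (x axis, log scale), in mutants on the left and wild type on the right, for the 8 tested markers and for the median of each of 10 length bins of all tested genes. Mpx, mmp9, cebpa and spi1b lie between 0.34 and 0.42 in mutant replicate 2, above the line of medians, and coro1a and lcp1 lie below it.

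In 4 lists of further myeloid transcription factors, neutrophil genes, macrophage genes and pan-leukocyte genes, 78 genes were matched and 47 tested. Of these 8 rose and 0 fell, which is 17% against the background of 6.71% higher. Their median log2 change was 0.29, against -0.0017 over all tested genes, and 39 of the 47 had a positive change. Such a shift was not particular to these lists. Medians were 0.29 for erythroid genes (30.8% called higher), 0.28 for melanophore and iridophore genes (22.2%) and 0.18 for endothelial genes (22.2%). Other lists had medians near 0, with 0.05 for epidermis, -0.08 for liver and yolk and -0.09 for xanthophores. The lists include genes of high level, such as apoeb (mean 1200 FPKM over the 6 libraries) and cfl1l (522 FPKM). The part of other cells in those levels was not tested. The other 31 of the 78 matched genes were below the filter, 4 of them with no read in any library.

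Among 13 tested myeloid transcription factor genes 2 rose and 0 fell. That is 15.4% higher, where 6.71% of all tested genes were called higher and 7.48% lower. Cebpb, a C/EBP factor of emergency granulopoiesis and inflammation, had 29.7, 33.1 and 23.6 FPKM in the mutants against 18.1, 18.8 and 16.5 FPKM in wild type, a log2 change of 0.74 (SE 0.12, adjusted p = 0.00114). Cebpd, another inflammatory C/EBP factor, changed by 0.44 (adjusted p = 0.0459), with overlapping groups. The list had 1 call when mutant replicate 1 or any 1 of the wild-type replicates was left out, with limma and with the length trend removed. Those leave-out fits called 640 to 782 of all genes higher, against 1107 in the main fit. The list had 4 genes higher without mutant replicate 2, where 14.5% of all genes were called higher. With a replicate block it had 3 higher, where 1574 of all genes were called higher against 1107 in the main fit. Irf8, which directs the macrophage fate, was at 1.06 ± 0.125 FPKM in mutants and 0.537 ± 0.284 FPKM in wild type (SD, n = 3 each) and did not pass (adjusted p = 0.135). C/EBP factors also act outside blood, so their levels in whole embryos are not those of myeloid cells alone.

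The neutrophil list had 1 of 9 tested genes higher and 0 lower, with a median log2 change of 0.12. The gene called was lect2l, a leukocyte chemotaxin related gene of neutrophils, with 4.18, 3.16 and 2.22 FPKM in mutants and 1.45, 1.40 and 1.05 FPKM in wild type (log2 change 1.34, SE 0.36, adjusted p = 0.0248). That call was lost without mutant replicate 1 or without any of the wild-type replicates, each of which left 0 neutrophil genes called. Those fits called 640 to 782 of all genes higher, against 1107 in the main fit. Without mutant replicate 2, 2 of the list were called higher, where 14.5% of all genes were called higher. Among the genes not called, cfl1l averaged 522 FPKM over the 6 libraries, where lyz averaged 144. The part of other cells in the levels of this list was not tested. Csf3r, the receptor for granulocyte colony-stimulating factor, was read 3 times in the mutants and 6 times in wild type. Cxcr2, a neutrophil chemokine receptor, had 0 reads in all 6 libraries, below the 3 reads over the series that a count of 0 allows.

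Macrophage genes had 1 of 11 tested members higher and 0 lower, with a median log2 change of 0.35. That is 9.09% higher, near the 6.71% of all tested genes. Slc37a2, a sugar phosphate exchanger of macrophages, was at 44.4 ± 4.14 FPKM in mutants and 31.9 ± 0.407 FPKM in wild type (SD, n = 3 each; log2 change 0.54, adjusted p = 0.0103). Its mean over the 6 libraries, 38.1 FPKM, was far above those of mpeg1.1 (0.912) and mfap4 (0.782) and near that of lgmn (36.0), all of this list. The part of other cells in the level of slc37a2 was not tested. The call was lost without wild-type replicate 2, which left 0 macrophage genes called. That fit called 732 of all genes higher, against 1107 in the main fit. Without mutant replicate 2, 2 of the list were called higher, where 14.5% of all genes were called higher. Mpeg1.1, the perforin-like gene that defines macrophages in this species, had 1.29, 0.93 and 0.97 FPKM in mutants and 0.66, 0.75 and 0.87 FPKM in wild type, and did not pass (log2 change 0.55, SE 0.29, adjusted p = 0.258). Its paralog mpeg1.2 had a value of the other sign, with 0.62, 0.57 and 0.43 FPKM in mutants and 1.15, 0.69 and 0.53 FPKM in wild type (log2 change -0.50, SE 0.37, adjusted p = 0.436). The chemokine gene ccl34a.4 was at 0.853 ± 0.0569 FPKM in mutants and 1.27 ± 0.348 FPKM in wild type (SD, n = 3 each; log2 change -0.52, adjusted p = 0.485), with all mutants below all wild types. Mfap4 was at 0.870 ± 0.332 FPKM in mutants and 0.693 ± 0.174 FPKM in wild type (SD, n = 3 each; adjusted p = 0.592). Marco, a scavenger receptor, had 5 reads in the mutants and 6 in wild type.

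Of 14 tested pan-leukocyte genes 4 rose and 0 fell. That is 28.6% higher, where 6.71% of all tested genes were called higher and 7.48% lower. The gene listed as CABZ01065103.1, which the table of gene names pairs with laptm5, a lysosomal membrane protein of blood cells, had 3.45, 3.19 and 3.10 FPKM in mutants and 1.31, 1.58 and 1.65 FPKM in wild type (log2 change 1.15, adjusted p = 0.0149). Cybb, the catalytic subunit of the phagocyte NADPH oxidase, changed by 0.84 (adjusted p = 0.0492) and fcer1gl, a signalling adaptor of immune receptors, by 0.80 (adjusted p = 0.0318). Arpc1b, a subunit of the actin-nucleating Arp2/3 complex that is not restricted to leukocytes, changed by 0.34 (adjusted p = 0.0428). The list had 0 calls when mutant replicate 1 or wild-type replicate 1 was left out, and 1 call when the library left out was mutant replicate 3, wild-type replicate 2 or wild-type replicate 3. Calls fell over all genes too, with 640 to 803 higher in these leave-out fits against 1107 in the main fit. Limma called 2 of its genes.

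Inflammatory mediators had 3 of 8 tested genes higher and 0 lower. That is 37.5% higher, where 6.71% of all tested genes were called higher and 7.48% lower. Cxcl18b, a chemokine that attracts neutrophils, had 4.96, 4.64 and 3.45 FPKM in the mutants against 2.13, 1.59 and 1.45 FPKM in wild type, a log2 change of 1.39 (SE 0.27, adjusted p = 0.00400). Socs3b, a feedback inhibitor of cytokine signalling, changed by 0.60 (adjusted p = 0.0361) and ptgs2a, a prostaglandin synthase, by 0.40 (adjusted p = 0.0311). This list had 1 call with limma, and 1 without mutant replicate 1, mutant replicate 3 or wild-type replicate 1. Over all genes 850 were called higher with limma and 643 to 803 in those leave-out fits, against 1107 in the main fit. Another 14 of its 22 matched genes were below the filter, among them il1b with 10 reads in mutants and 13 in wild type, and tnfa with 0 reads.

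**Figure D4:**
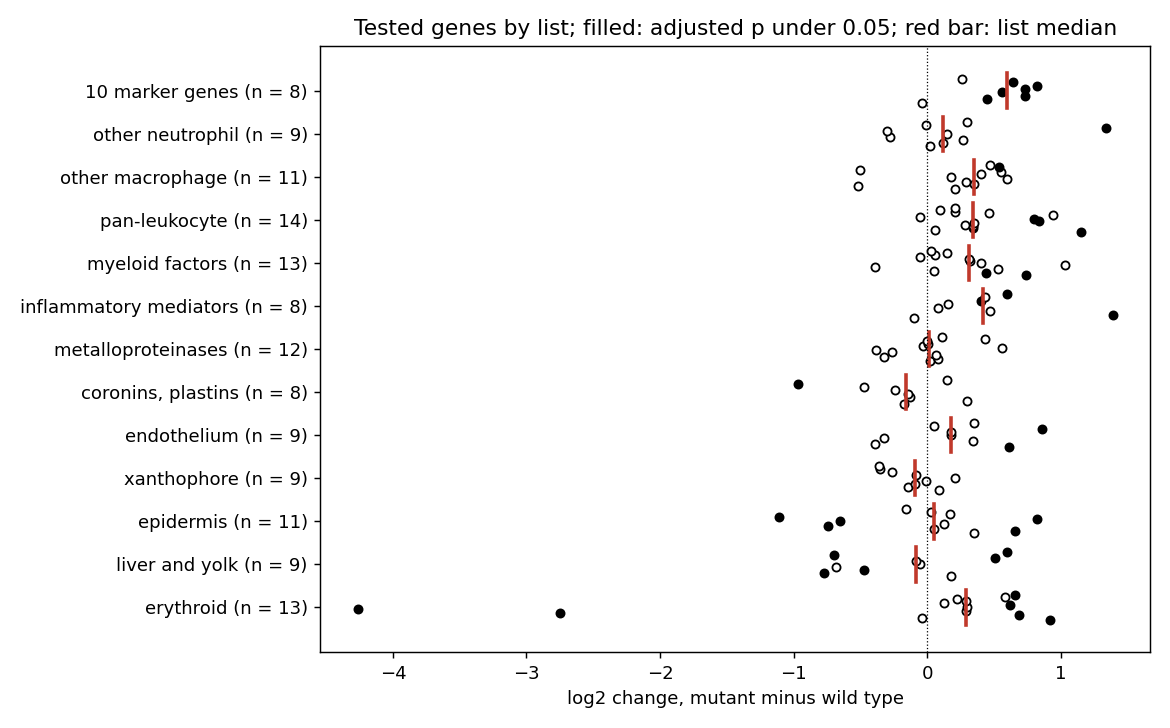
Log2 change between mutant and wild type (x axis) of the tested genes of 13 gene lists, filled where edgeR's adjusted p is under 0.05, with the list median as a red bar. The marker genes have a median of 0.60, the 4 further leukocyte and myeloid lists medians of 0.12 to 0.35, and the epidermal, liver and erythroid lists have calls on both sides of 0. The erythroid and endothelial lists have medians of 0.29 and 0.18, within the range of the leukocyte and myeloid lists.

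Relatives of the markers by sequence or pathway had 0 calls higher and 1 lower, where 6.71% and 7.48% of all tested genes were called. At such shares lists this short would hold few calls in either direction. No share over all genes was computed for the counts at an unadjusted p. Of 12 further metalloproteinase and inhibitor genes tested 0 were called by edgeR, DESeq2 or limma and 2 were higher at an unadjusted p under 0.05, and their median log2 change was 0.01. Among 8 tested coronin and plastin genes coro7 was called lower, with 0.533 ± 0.106 FPKM in mutants and 1.08 ± 0.222 FPKM in wild type (SD, n = 3 each; log2 change -0.97, adjusted p = 0.0404), and 0 rose. DESeq2 and limma did not make the coro7 call, and the list had 0 genes lower when mutant replicate 1, mutant replicate 3 or any 1 of the wild-type replicates was left out. Those leave-out fits called 727 to 866 of all genes lower, against 1234 in the main fit. Of 7 tested colony-stimulating factor and Kit pathway genes 0 were called by edgeR, DESeq2 or limma, with 1 higher at an unadjusted p under 0.05. Of 6 lysozyme, astacin and peroxidase relatives 0 were called by these tools and 0 passed unadjusted. Without mutant replicate 2 the metalloproteinase list had 1 gene higher and 3 lower, and the coronin and plastin list 1 higher and 2 lower. In that setting 14.5% of all genes were called higher and 14.8% lower.

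Markers of epidermis and liver, which express some of the 10 genes, had calls in both directions. Of all tested genes 6.71% were called higher and 7.48% lower. Of 11 tested epidermal genes 2 rose and 3 fell, with krt17 at -1.11 and cldne at -0.74, and epcam at 0.82 and anxa1a at 0.66 on the log2 scale. Their summed level was 6015 to 6568 FPKM in mutants and 5798 to 6440 FPKM in wild type. The liver and yolk list had 2 genes higher and 3 lower of 9 tested, with apoa1b at -0.77, serpina1 at -0.70, tfa at 0.60 and rbp4 at 0.51, and a summed level of 5606 to 8365 FPKM in mutants and 7484 to 8367 FPKM in wild type. The part of epidermis in mmp9 and mmp13a, and of liver in cebpa, was not tested.

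Erythroid genes, of the sister lineage that Gata1 directs against Spi1, had 4 of 13 tested members higher and 2 lower. For this list and those that follow, the shares over all tested genes were 6.71% higher and 7.48% lower. Gata1a changed by 0.69 and alas2, the first enzyme of erythroid heme synthesis, by 0.92, and urod, a later enzyme of that pathway, by 0.66. The globin genes went both ways. Hbbe1.1 and hbae1 changed by -4.26 and -2.75 on the log2 scale, and hbbe3 was called higher (0.62, adjusted p = 0.00455). Hbbe2 (0.30, adjusted p = 0.0599) and hbae3 (0.29, adjusted p = 0.181) did not pass. Globin genes have near-identical copies among which reads can be split, so these values are uncertain. Of 9 endothelial genes 2 rose and 0 fell, namely pecam1 (0.86) and cdh5 (0.61). At an unadjusted p under 0.05 in edgeR 3 were higher and 2 lower, and limma called 1 higher and 1 lower. The 2 lower unadjusted were egfl7 (-0.39, adjusted p = 0.12), without overlap of the groups, and fli1a (-0.32, adjusted p = 0.142), with overlap. Pecam1 is also expressed in some leukocytes. Of 4 tested lymphoid, mast cell and thrombocyte genes 1 rose and 0 fell. Their median change was -0.01 on the log2 scale. The platelet glycoprotein gene gp9 rose (1.13), while gp1bb, another such gene, was at 1.31 ± 0.210 FPKM in mutants and 2.17 ± 0.368 FPKM in wild type (SD, n = 3 each) without overlap and did not pass (-0.68, adjusted p = 0.0888). The mast cell gene cpa5 (-0.44) and the lymphoid factor gene ikzf1 (0.42) did not pass either. Of the 9 melanophore and iridophore genes pmela (0.70) and tyrp1b (0.58) rose and 0 fell.

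The ranked genes most like the mean profile of the 8 tested markers over the 6 libraries were not leukocyte markers of the lists used here. Likeness was measured as the root mean square distance between centred log2(CPM + 1) profiles, over genes with a mean of at least 100 reads. That minimum left lect2l, cybb, mpeg1.1 and ptprc, among other leukocyte genes, out of the ranking. The absence of leukocyte markers among the nearest genes was therefore partly set beforehand. The nearest of 10385 genes were caska (distance 0.0389 log2 units), tmem88a (0.0473), pck2 (0.0524), ero1b (0.0555) and kdsr (0.0599). The markers themselves were farther from their own mean, from 0.112 for mmp9 to 0.283 for cebpa. This is a description over 6 libraries in 2 groups, in which any gene with a similar change is near.

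The authors' deposited table of changed genes lists 743 genes and 0 of the 10 markers. All genes of the authors' deposited table changed by at least 1.00 on the log2 scale, which is more than the largest change of a called marker here. The authors' deposited splicing sheets list 1 event in the 10 genes, a skipped exon of 93 bp in spi1b (GRCz11, chromosome 7, 32387000 to 32387092, minus strand). The authors' deposited table gives an FDR of 6.1e-05 for it, on 6 inclusion and 2 skipping reads in the mutants and 2 inclusion and 3 skipping reads in wild type. Inclusion levels in the authors' deposited table were 0.552, 1.0 and 0.649 in mutants and 0.0, 0.0 and 1.0 in wild type, where sample 1 of the sheet was taken to be wild type because the labels name wild type ahead of the mutant. With 8 and 5 reads over all libraries of mutants and wild type, the level of single libraries is hardly resolved.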

How the data were processed

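Whole embryos of 2 groups were sequenced, with 3 libraries each, as 100 bp paired ends after Trizol extraction and TruSeq library preparation, per the labels' protocols. Per the submitters' processing notes the tools were HISAT2 2.0.1 and HTSeq 0.6.1, with cutadapt, bcl2fastq and DESeq2, and the build was GRCz11. Their settings are not stated in the labels. The files the authors deposited hold raw counts for each gene, FPKM values per gene with the exonic length, a table of changed genes with log2 fold changes and p-values, and splicing sheets whose inclusion differences are a score between -1 and 1 with a p-value and FDR. The labels do not state whether counting used strand. Samples were grouped by their labels.

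Counts of 16489 genes, those whose FPKM averaged 0.5 or more, were tested with edgeR 4.0.16 (R 4.3.3), TMM scaling, the quasi-likelihood test, two-sided, and Benjamini-Hochberg adjustment over all tested genes at 0.05. Changes are mutant minus wild type. The test was also run on simulated counts that gave all genes a common dispersion, and the outcome is not reported here. The quasi-likelihood test gives no SE, so each SE was derived as the absolute log2 change divided by the square root of the test's F statistic. Intervals of 95% use that SE and a t quantile at the fit's own degrees of freedom, and are approximate. Of 233 symbols in 16 related lists 220 were matched, 5 of them by gene ID. Named from each list were the up to 4 called genes with the largest change; other genes named from the lists were chosen after their values were seen. The marker genes and lists were chosen with earlier results of these data known. Limma 3.58.1 on log2(FPKM + 1) and DESeq2 1.42.0 were alternatives, with other scalings, filters, a replicate block and each library left out. Counts limit precision to counting error and library spread. RefSeq neighbours come from the assembly GRCz12tu, and none of its coordinates are used.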

Additional observations from a re-analysis of the deposited data

How the results depend on the processing

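The 6 marker genes called higher were also 6 with DESeq2, with either other scaling, without a filter, with the length trend removed (added after seeing the data) and with a replicate block, and 0 of the 8 tested were called lower under every alternative run. The exception below the filter is csf1ra, called lower (-1.42) without mutant replicate 2 in the fit without a filter. The count was 3 with limma on log2(FPKM + 1), 3 with limma on log2(FPKM + 0.1) and 3 with a minimum of 5 FPKM, which leaves 4 of the genes in the test. Leaving out each library gave 2 to 5 marker genes higher and 0 lower each time. Lyz and npsn were called under all 15 alternatives, with log2 changes of 0.50 to 0.63 and 0.52 to 0.78. Mpx was lost under 3 of 14 (adjusted p of 0.0776 with limma and a pseudocount of 1), coro1a under 4 of 15, lcp1 under 6 of 14 and mmp9 under 7 of 14. Cebpa, not called in any setting, ranged from -0.18 without mutant replicate 2 to 0.07 when a library was left out, with 0.07 without mutant replicate 3 and 0.03 without wild-type replicate 3.

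The related lists held 220 matched genes, some of them below the filter, with 24 higher and 9 lower in the main fit. Those counts were 11 to 34 and 6 to 17 when a library was left out, and 15 were higher with a minimum of 5 FPKM. Over all 16489 tested genes the main counts were 1107 and 1234, or 6.71% and 7.48%. They were 640 to 2393 higher and 727 to 2435 lower when a library was left out, and 850 and 1303 with limma on log2(FPKM + 1). With a minimum of 5 FPKM they were 693 and 738, but of only 7922 genes tested, so these counts do not compare directly with the others. In both sets the highest of these counts came without mutant replicate 2, where 14.5% of all genes were called higher and 14.8% lower. With the replicate block 1574 and 1813 of all genes were called. Deviations of same-numbered libraries correlated at 0.19, 0.322 and 0.0522 for numbers 1 to 3, and those of differently numbered libraries at -0.306 to 0.155. The main fit did not use the numbers as a block, and whether same-numbered libraries form pairs was not tested. The causes were not tested. Spi1b, mmp13a and csf1ra had at most 73 reads per group, and the part of depth in their missing calls was not tested.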

Other observations

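Of the 31 genes of the 4 leukocyte and myeloid lists below the filter of the main test, 18 had more reads in the mutants and 9 had fewer. The other 4 had no read in any library. These are raw reads, not scaled to depth, and some differ by a single read, as cebp1 (7 and 6, mutants and wild type) and marco (5 and 6). The same split over all low genes was not computed, so these counts show no direction. In the fit without a filter 2 of the 31, or 6.45%, were called higher and 0 lower, a share near the 5.48% of all genes called higher there. The 2 genes, and 1 inflammatory mediator called in that fit, were named after their values were seen. Ptprc, the gene of the leukocyte surface phosphatase CD45, had 15, 16 and 22 reads in the mutants and 3, 4 and 6 reads in wild type (edgeR adjusted p = 0.00879). Alox5ap, which presents arachidonic acid for leukotriene synthesis in myeloid cells, had 7, 14 and 7 reads in the mutants and 0, 0 and 2 in wild type (edgeR adjusted p = 0.00673). The gene listed as CXCL8, which encodes the neutrophil-attracting chemokine interleukin 8, had 5, 10 and 10 reads in the mutants and 0, 0 and 1 in wild type (edgeR adjusted p = 0.00490). In each of the 3 genes every mutant library held more reads than every wild-type library. Other low genes had more reads in wild type and were not called. From lists other than these 4, the lymphoid receptor gene il7r had 5 reads in the mutants and 15 in wild type, the thrombocyte integrin gene itga2b 5 and 13 (mutants and wild type), and the Kit receptor gene kitb 17 and 28. The other low genes of the list of il7r and itga2b had more reads in the mutants and were not called either. They were rag1 (60 and 27), lck (12 and 1), rag2 (33 and 26) and mpl (3 and 1). In the list of kitb, csf1rb (17 and 8) and csf3b (9 and 3) had more in the mutants, and csf3r (3 and 6) and flt3 (0 and 2) fewer.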
